A study of Homo sapiens with 10 samples.

Results

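The 10 genes AXIN2, NKD1, ZNRF3, RNF43, NOTUM, APCDD1, LGR5, ASCL2, SP5 and SOX9 were examined as feedback inhibitors of Wnt signalling and targets of the pathway in intestinal crypt stem cells. They were chosen by gene symbol and make up 10 of the 60554 genes in the tables. In the comparison of all libraries labelled knockdown with the controls, NKD1, SP5 and ZNRF3 fell by 2.21, 1.79 and 0.69 on the log2 scale and SOX9 rose by 0.77. AXIN2 passed the test with guide g2 alone, and NOTUM passed with guide g1 alone in a fit that kept low genes. The difference between the guides was called for neither gene. RNF43, LGR5, ASCL2 and APCDD1 passed in no comparison by edgeR's quasi-likelihood test at its main settings, and ASCL2 passed with g2 under some others.

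Wnt ligands bind Frizzled receptors and the co-receptors LRP5 and LRP6, which halts the destruction complex that otherwise marks beta-catenin for degradation. Beta-catenin then enters the nucleus and acts with TCF and LEF factors on target genes, several of which encode inhibitors of the pathway itself. In the crypt of the intestine this signal maintains stem cells, which carry the R-spondin receptor LGR5. Most colon carcinoma lines, Caco-2 among them, carry a truncating mutation of APC, a scaffold of the destruction complex, so that the pathway is active without ligand.

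RNA was measured in 10 libraries of Caco-2 cells, a human colon carcinoma line. All cells carried dCas9-KRAB, a fusion of a repressor domain to a form of Cas9 without nuclease activity, in a line that was grown from single cells and selected with puromycin, and all had received a second lentivirus, a U6 guide vector with a hygromycin gene. The groups were gCtl, 5 libraries with the guide plasmid left empty, g1, 3 libraries with a first guide against the long non-coding RNA LHFPL3-AS2, and g2, 2 libraries with another guide against it. An empty plasmid expresses no guide, so an effect of guide expression as such cannot be told apart from an effect of the target.

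Library totals lay between 3838803 and 8730468 estimated counts. Values are given as CPM, counts scaled to 1000000 per library after TMM normalisation, and 1 count corresponds to 0.115 to 0.261 RPM, the same measure before that normalisation. LHFPL3-AS2 (chr7:104894628-104926645, GRCh38, - strand) itself had 0.805 to 3.61 CPM in gCtl, 2.16 to 3.88 in g1 and 2.37 to 6.40 in g2, and was not lower with the guides than in gCtl (exact two-sided permutation test, p = 0.19). The directions below therefore rest on the labels. All 8 markers of colon epithelium passed the filter on low values, with pooled log2 fold changes between -0.52 and 0.39. With g2 KRT18 was called lower (-0.78) and CDH17 higher (0.72) in edgeR's test, where 13.0% and 10.7% of all genes were. Between libraries of one group the chi-square of the gene counts was 4.28 to 26.0 times its degrees of freedom, so each library was taken as a replicate. The labels do not say whether libraries came from separate cultures, so p-values measure the spread between libraries, which may be technical.

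The test was edgeR's quasi-likelihood test on 11640 protein-coding genes, and a gene was called where its p after Benjamini-Hochberg adjustment did not exceed 0.05 and its fold reached 1.5. Of the 10 genes, 8 passed the filter on low values. NOTUM and APCDD1 did not, and were taken from a wider fit of 23385 genes, in which every biotype was kept and 10 counts in total were required. In the pooled comparison 3 of the 8 were called lower, against 11.0% of all genes tested, and 1 higher, against 8.14%. With g1 the counts were 3 lower and 1 higher, where 9.91% and 6.81% of all genes were called. Leaving out gCtl replicate 4, g1 replicate 1 or g1 replicate 3 left 1 lower call with g1, and leaving out g1 replicate 3 left 0 higher by edgeR. With g2 they were 4 lower and 1 higher, where 13.0% and 10.7% of all genes were called, and 2 lower without g2 replicate 1 (3 without g2 replicate 2, where SP5 and ZNRF3 were lost and ASCL2 was gained). The counts are read against these shares because many genes differed between the groups. NOTUM was a further call with g1 in the wider fit, in which 5.20% of genes were called lower. The CPM ranges of the groups did not overlap for 3 of the 10 genes in the pooled comparison, 2 lower (8.36% of all genes) and 1 higher (7.08%). For g1 these numbers were 3 lower (13.5%) and 1 higher (13.0%), and for g2 they were 5 lower (19.8%) and 1 higher (18.2%). The median log2 fold change of the 8 genes was -0.44 in the pooled comparison and that of all genes tested was 0.02. Scaling by library totals alone moved the median of all genes to -0.07 in the pooled comparison and to -0.16 with g2, and the share of calls that were lower from 57.5% to 69.4% and from 54.9% to 73.3%.

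**Figure D1:**
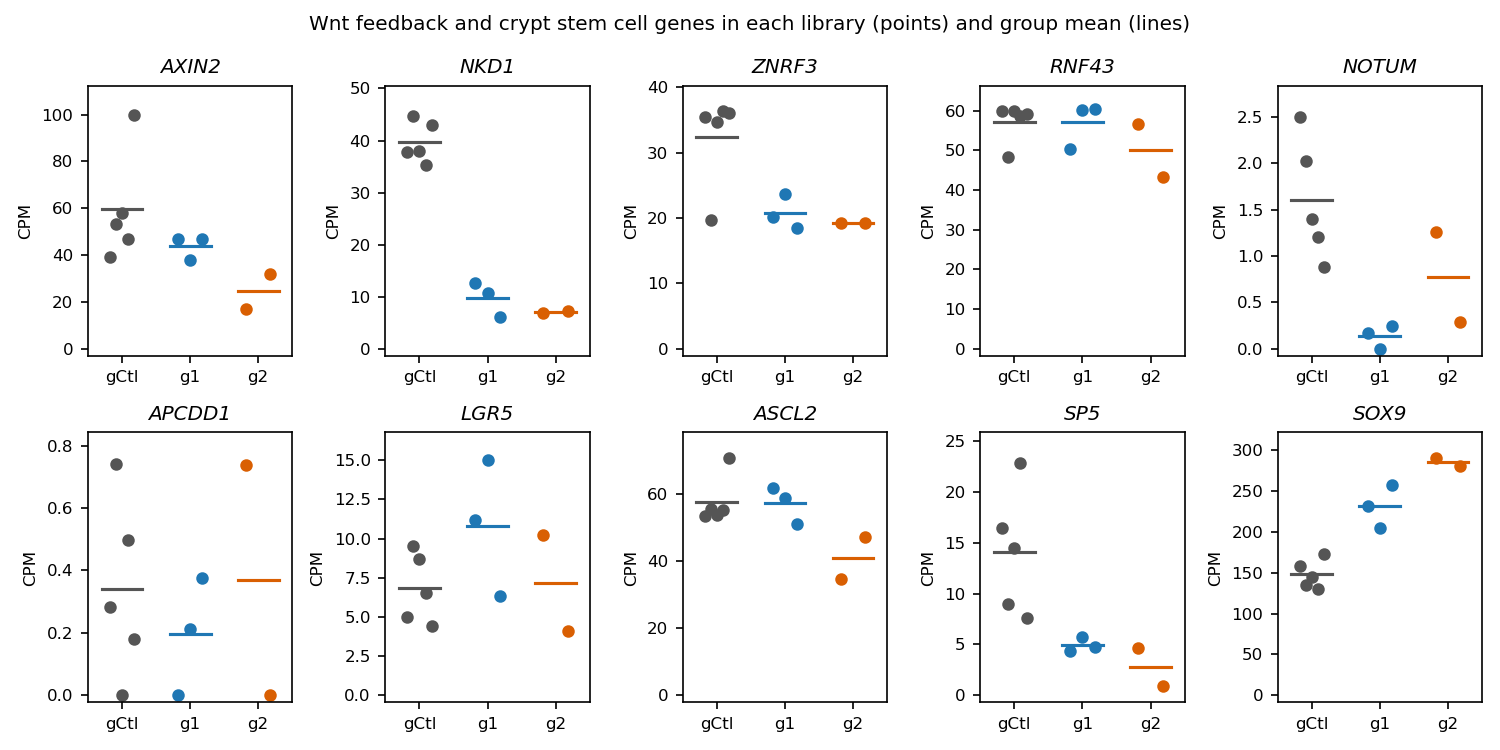
CPM (vertical axis, from 0) of each gene in the libraries of gCtl, g1 and g2, with 1 point per library and a line at the group mean. NKD1 and SP5 were lower and SOX9 was higher in every g1 and g2 library than in any gCtl library, whereas the RNF43 and LGR5 values of the groups overlapped.

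NKD1 (chr16:50548330-50649249, + strand) encodes a cytoplasmic protein that binds Dishevelled and dampens Wnt signals. It had 37.9, 44.8, 38.1, 35.4 and 42.9 CPM in the gCtl libraries, 12.6, 10.7 and 6.0 in g1 and 6.89 and 7.26 in g2. Every g1 and g2 library lay far below the lowest gCtl library, and the 5 gCtl libraries lay close together (39.8 ± 3.90, SD, n = 5). The pooled log2 fold change was -2.21 (SE 0.20, adjusted p = 2.38e-05, edgeR's quasi-likelihood test), a 4.62-fold lower level. By guide it was -2.04 (SE 0.22) with g1 and -2.50 (SE 0.27) with g2. NKD1 was called under each of the other settings and with any one library left out. Its locus also carries an annotated antisense gene, AC007608.1, with 292 counts over the gCtl libraries, 71 over g1 and 11 over g2. Whether reads were assigned by strand is not given in the sources used here. Without strand, reads from any exon sequence that NKD1 and its antisense gene share cannot be told apart. Whether their exons overlap was not examined.

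The paralogue NKD2 lay at 2.27 to 3.61 CPM in gCtl, at 4.14 to 6.33 in g1 and at 1.43 and 1.60 in g2, so that g1 was above and g2 below every control. Neither guide passed against gCtl (log2 fold changes 0.68 and -1.02), but g2 was lower than g1 by 1.70 on the log2 scale (SE 0.45, adjusted p = 0.0408, edgeR's quasi-likelihood test), a call that was lost in 8 of the 10 fits with a library left out, at -1.82 to -1.52. These levels rest on 8 to 34 counts per library.

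AXIN2 (chr17:65528563-65561647, - strand) encodes a scaffold of the destruction complex and is the most widely used readout of the pathway. Its level was 39.2, 53.4, 57.9, 46.9 and 99.7 CPM in gCtl, 47.0, 37.8 and 46.6 in g1 and 17.0 and 31.8 in g2. The g2 libraries were below all controls, of the g1 libraries one was just below the lowest control and the other two lay among the lower controls, and gCtl replicate 5 stood at 1.99 times the median of the other controls. With g2 the log2 fold change was -1.28 (SE 0.32, adjusted p = 0.00863, edgeR's quasi-likelihood test), 2.43-fold lower. With g1 it was -0.44 (SE 0.26, adjusted p = 0.245), and the pooled value of -0.72 (SE 0.27, adjusted p = 0.0621) missed the threshold, although it passed by DESeq2 and by limma on RPM and, in edgeR, with library totals alone, with the length trend removed and without gCtl replicate 1, g1 replicate 1 or g1 replicate 3 (adjusted p from 0.0384 to 0.639 over all settings). The difference between the guides was -0.84 (SE 0.33, adjusted p = 0.164), so it is not shown that AXIN2 responded to one guide more than to the other. Without gCtl replicate 5 the pooled value fell to -0.47 and the g1 value to -0.19, and without g2 replicate 1 the g2 value was -0.91 and no longer called. The paralogue AXIN1, the constitutive scaffold of the same complex, had 9.04 ± 2.15 CPM in gCtl and 5.25 ± 1.59 in the 5 libraries labelled knockdown (SD, n = 5 each). Its log2 fold change was -0.78 (SE 0.26, edgeR's quasi-likelihood test, adjusted p = 0.0439), and it was not called with either guide alone.

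ZNRF3 and RNF43 encode membrane ubiquitin ligases that remove Frizzled receptors from the cell surface. ZNRF3 (chr22:28883592-29057487, + strand) had 35.5, 19.7, 34.7, 36.3 and 36.1 CPM in gCtl, 20.1, 23.7 and 18.5 in g1 and 19.2 and 19.2 in g2. In gCtl replicate 2 the level was that of the g1 and g2 libraries, and the other 4 controls lay together above all of them. The pooled log2 fold change was -0.69 (SE 0.18, edgeR's quasi-likelihood test, adjusted p = 0.0115), with -0.65 for g1 (adjusted p = 0.0337) and -0.75 for g2 (adjusted p = 0.0278). Without gCtl replicate 2 the pooled value was -0.83. Tested against a fold of 1.5, ZNRF3 was called neither in the pooled comparison nor with either guide. On log2(TPM + 1) limma gave -0.36 in the pooled comparison (adjusted p = 0.324), -0.12 with g1 and -0.71 with g2, none called, and with protein-coding transcripts only edgeR kept the pooled call and lost those of g1 and g2. With a library left out the call was lost in 5 of 10 fits for g1 (gCtl replicates 1, 3 and 4 and g1 replicates 1 and 3, values from -0.78 to -0.58 over the 10 fits) and in 5 of 10 for g2 (gCtl replicates 1, 3 and 4 and either g2 library, -0.89 to -0.71).

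RNF43 (chr17:58352500-58417595, - strand) had 60.0, 48.3, 59.9, 58.6 and 59.1 CPM in gCtl, 50.4, 60.3 and 60.5 in g1 and 56.7 and 43.3 in g2. The groups overlapped and their means were alike, 57.2 ± 5.02 CPM in gCtl and 54.2 ± 7.35 in all libraries with a guide against LHFPL3-AS2 (SD, n = 5 each). The pooled log2 fold change was -0.08 (SE 0.13, edgeR's quasi-likelihood test, adjusted p = 0.694). With g2 the value was -0.20 and not called, but limma on log2(TPM + 1) gave -0.68 and called it (adjusted p = 0.0216). Of the pair of ligases, ZNRF3 was thus called lower and RNF43 was not, and the difference between these genes was not tested. Their reads were divided among transcripts that share exons: ZNRF3-003 took 43.8% of the ZNRF3 counts in gCtl, 83.0% in g1 and 45.0% in g2, and RNF43-002 took 47.5%, 53.1% and 64.8% of those of RNF43. The controls differed in the share of ZNRF3-003, with 85.16% in gCtl replicate 5 and 14.86% to 41.99% in the others. Reads from the 3' end of RNA do not measure splicing. The summed counts per gene do not depend on this division, whereas TPM, which divides by transcript length, does. In the ZNRF3 locus, ZNRF3-IT1 on the same strand had 110 counts over gCtl, 44 over g1 and 17 over g2. The antisense gene ZNRF3-AS1 had 15, 9 and 1.

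NOTUM and APCDD1 encode inhibitors that act outside the cell or at its surface, NOTUM as a secreted enzyme that removes the lipid group of Wnt ligands and APCDD1 as a membrane protein that binds ligand and co-receptor. NOTUM (chr17:81952507-81961840, - strand) was rare, with counts of 10, 11, 8, 5 and 5 in the gCtl libraries, 1, 0 and 2 in g1 and 7 and 2 in g2. In g1 every library was below every control, and in g2 one library lay within the controls and the other below them. Summed over libraries and divided by depth, gCtl held 10.2 times the level of g1 (95% exact interval 3.26 to 51.8) and 2.40 times that of g2 (1.14 to 5.64), intervals that cover counting error only. In the fit with all biotypes the log2 fold change was -3.23 with g1 (SE 0.88, edgeR's quasi-likelihood test, adjusted p = 0.0233), -1.11 with g2 (SE 0.82, adjusted p = 0.40) and -2.02 in the pooled comparison (SE 0.69, adjusted p = 0.063). The difference of g2 against g1 was 2.12 (SE 1.05, adjusted p = 0.349) and not called. The pooled difference was called by DESeq2 (adjusted p = 0.0334) and by limma in 3 forms (adjusted p from 0.0171 to 0.0428). The call with g1 was lost without gCtl replicate 1 or 2 or any one g1 library, with adjusted p up to 0.0872 by edgeR's test. It was also lost with protein-coding transcripts only and when tested against a fold of 1.5. The pooled value was -3.00 and called without g2 replicate 1.

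APCDD1 (chr18:10454628-10489948, + strand) had 0 to 4.04 estimated counts in gCtl, 0 to 3.07 in g1 and 0 and 4.11 in g2. The sums were 8 counts in gCtl and 8 in the libraries labelled knockdown, and gCtl held 1.34 times the level of the latter after division by depth (95% exact interval 0.439 to 4.10). A difference was not detectable at this depth. Its paralogue APCDD1L had at most 0.538 CPM in any library.

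LGR5 (chr12:71439770-71586310, + strand), the R-spondin receptor by which crypt stem cells are marked, had 5.0, 9.55, 8.72, 6.50 and 4.40 CPM in gCtl, 11.2, 15.0 and 6.33 in g1 and 10.2 and 4.07 in g2. The range within each group was wider than the difference between any group means. The pooled log2 fold change was 0.43 (SE 0.33, edgeR's quasi-likelihood test, adjusted p = 0.367), with 0.63 for g1 (SE 0.35) and 0.04 for g2 (SE 0.42). Its transcript LGR5-001 took 83.7% of the gene's counts in gCtl, 18.7% in g1 and 60.2% in g2. The g2 share joins unlike libraries, with 79.53% in g2 replicate 1 and 20.75% in g2 replicate 2. LGR5-003 and LGR5-004 together took most of the counts in g1. The gene overlaps TSPAN8 on the other strand, which had 645 counts over gCtl, 1145 over g1 and 841 over g2. Among the paralogues, LGR4 had 23.5 ± 4.63 CPM in gCtl and 26.3 ± 7.47 with either guide (SD, n = 5 each, log2 fold change 0.16, SE 0.19), and LGR6 had at most 0.528 CPM in any library.

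ASCL2 (chr11:2268495-2270952, - strand), a transcription factor on which intestinal stem cells depend, had 53.5, 55.6, 53.7, 55.4 and 70.9 CPM in gCtl, 62.0, 58.9 and 51.1 in g1 and 34.8 and 47.4 in g2. Both g2 libraries were below every other library, while of the g1 libraries one lay just below the lowest control and the others among the controls. The log2 fold change was -0.49 with g2 (SE 0.18, edgeR's quasi-likelihood test, adjusted p = 0.0526), -0.01 with g1 (SE 0.15) and -0.19 in the pooled comparison (SE 0.16, adjusted p = 0.41), none of them called. Without g2 replicate 2 the g2 value was -0.73 and called, and it was called by limma and with library totals alone (-0.64). The test of g2 against g1 gave -0.48 (SE 0.19, adjusted p = 0.167).

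SP5 (chr2:170715351-170718078, + strand) encodes a zinc finger transcription factor that is a direct target of beta-catenin and can repress other targets. It is shown with the sequence upstream of its start because it was among the genes that fell and because the letters that TCF and LEF factors are known to bind, ATCAAAG and TTCAAAG, occur there. RefSeq gave promoter sequences for 3 of the 10 genes, SP5, RNF43 and APCDD1. The SP5 line runs 5′ to 3′ over the 250 bases before the RefSeq start (chr2:170715087-170715336, GRCh38.p14, + strand), with the matches in capitals.

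SP5: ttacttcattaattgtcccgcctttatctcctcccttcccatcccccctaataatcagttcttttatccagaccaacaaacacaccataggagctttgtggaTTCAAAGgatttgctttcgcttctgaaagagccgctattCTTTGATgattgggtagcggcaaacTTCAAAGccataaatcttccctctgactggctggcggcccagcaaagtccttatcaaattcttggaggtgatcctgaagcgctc

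TTCAAAG lay 148 to 142 and 84 to 78 bases before the start on the strand of the gene, and CTTTGAT, the reverse complement of ATCAAAG, lay 109 to 103 bases before it. Both motifs were searched on both strands and share their last 6 letters. Among 35116 promoter windows of 250 bases, 2.26% held ATCAAAG, 3.8% held TTCAAAG and 5.94% held either. The windows of RNF43 and APCDD1 held neither. A match describes letters in a window, not a bound site.

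SP5 had 16.5, 9.0, 14.5, 22.9 and 7.56 CPM in gCtl, 4.33, 5.70 and 4.75 in g1 and 4.66 and 0.872 in g2. All 5 libraries labelled knockdown lay below the lowest control, although the controls themselves spread over a wide range (14.1 ± 6.15, SD, n = 5). The pooled log2 fold change was -1.79 (SE 0.39, adjusted p = 0.00467, edgeR's quasi-likelihood test), 3.46-fold lower, with -1.51 for g1 (SE 0.42) and -2.38 for g2 (SE 0.54). The pooled call held with any one library left out, and the g1 call was lost without gCtl replicate 4, g1 replicate 1 or g1 replicate 3 (-1.68 to -1.27 over the 10 fits). The g2 value rests on an unequal pair: it was -1.57 and not called without g2 replicate 2, which had 6 counts, and -3.97 without g2 replicate 1.

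SOX9 (chr17:72121020-72126420, + strand), a transcription factor of the crypt base, went the other way. Its level was 158, 135, 144, 130.4 and 173 CPM in gCtl, 232, 205 and 258 in g1 and 290.1 and 281 in g2. Every g1 library was above every control and both g2 libraries were above every g1 library. The pooled log2 fold change was 0.77 (SE 0.14, adjusted p = 0.00132, edgeR's quasi-likelihood test), 1.71-fold higher, with 0.65 for g1 (SE 0.14) and 0.95 for g2 (SE 0.15). The difference between the guides was 0.30 (SE 0.17, adjusted p = 0.335). Tested against a fold of 1.5 rather than against no change, SOX9 was not called, and the g1 call was lost without g1 replicate 3 (0.54). SOX9 had the highest counts of the 10 genes, 542 to 2119 per library, and its antisense neighbour SOX9-AS1 had 71 counts over gCtl, 45 over g1 and 32 over g2.

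**Figure D2:**
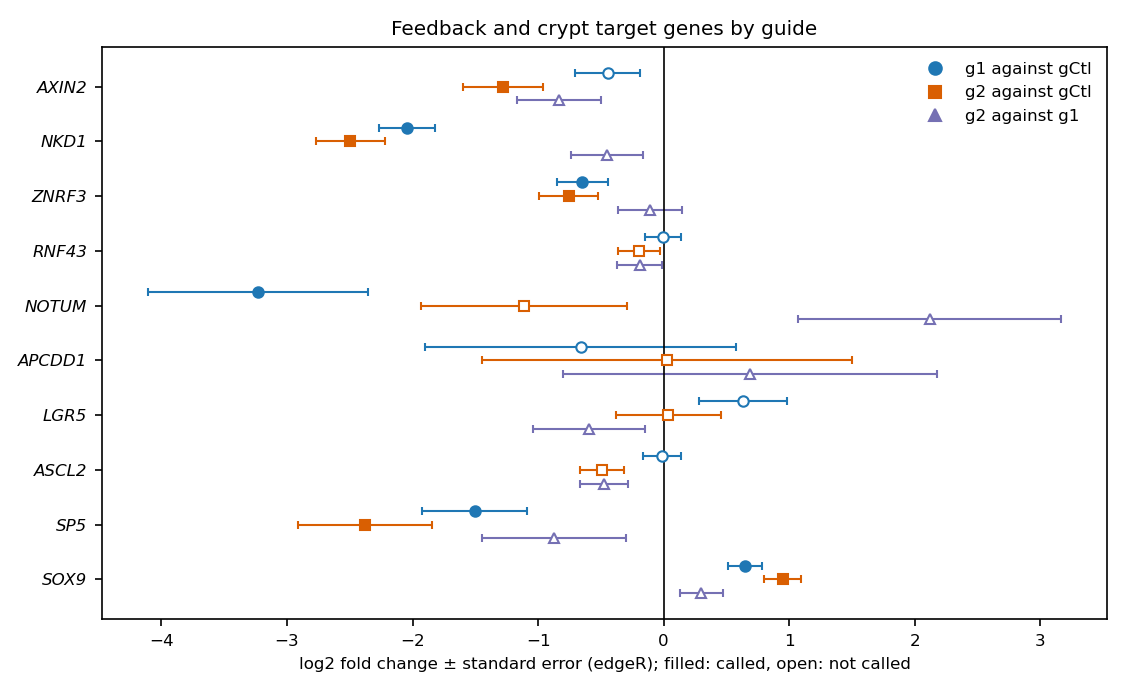
Log2 fold change (horizontal axis) with its standard error from edgeR for each gene, in g1 against gCtl (circles), g2 against gCtl (squares) and g2 against g1 (triangles), filled where called and open where not. NKD1, SP5, ZNRF3 and SOX9 have filled symbols for both guides, AXIN2 for g2 and NOTUM for g1, and all triangles are open.

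The guides were compared with each other directly, since both are set against the same gCtl libraries. Of the 8 genes above the filter, 0 were called lower and 0 higher in g2 than in g1 by edgeR's quasi-likelihood test, where 3.42% and 1.55% of all genes were called, and with any one library left out the counts stayed at 0. The CPM ranges did not overlap for AXIN2 and ASCL2, lower in g2 (17.3% of all genes), and for NOTUM and SOX9, higher in g2 (15.6%). The count was also 0 by DESeq2 and by limma. At an unadjusted p under 0.05 there were 2 of the 10, AXIN2 and ASCL2, both lower in g2, against 21.0% of all genes tested. The standard errors of these differences ran from 0.17 for SOX9 to 0.58 for SP5 among the 8 genes.

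Levels of different genes were compared per length, as TPM, counts divided by annotated transcript length and scaled to 1000000 per library. In gCtl the order was SOX9 with 49.7 ± 5.13 TPM (SD, n = 5 here and for the values that follow), ASCL2 with 41.2 ± 4.35, AXIN2 with 20.2 ± 7.34, RNF43 with 18.8 ± 1.84, ZNRF3 with 9.78 ± 3.15, SP5 with 9.22 ± 4.16, NKD1 with 6.12 ± 0.50, LGR5 with 2.28 ± 0.99, NOTUM with 0.911 ± 0.378 and APCDD1 with 0.118 ± 0.10. SOX9 and ASCL2 overlapped in their TPM ranges, as did AXIN2 and RNF43, the set of ZNRF3, SP5 and NKD1, and LGR5 and NOTUM, and the range of AXIN2 (13.0 to 32.4) also reached into those of ZNRF3 and SP5. In the libraries labelled knockdown SOX9 had 80.6 ± 5.77 TPM (n = 5) and ASCL2 35.1 ± 9.93. Reads of these libraries start near the polyA tail, so a count does not grow with length and a TPM of a long gene is understated. Without division by length, NKD1 (39.8 CPM in gCtl) lay above ZNRF3 (32.5) and SP5 (14.1), and AXIN2 (59.4), ASCL2 (57.8) and RNF43 (57.2) lay together, so the order depends on that division.

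Among the controls the genes did not share one order of libraries. Replicate 5 of gCtl had the highest AXIN2, ASCL2 and SOX9 and the lowest SP5, LGR5 and NOTUM of the 5 controls. The coefficient of variation over the controls was smallest for RNF43 at 8.78% and for NKD1 at 9.81%, and was 39.7% for AXIN2 and 43.7% for SP5. The cause of this spread was not tested.

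The rest of the pathway was described by lists of named genes. Of 21 ligands and release factors 3 passed the filter, and 1 of them was called higher in the pooled comparison, where 8.14% of all genes were. It was WLS, the carrier that brings Wnt proteins to the cell surface (14.3 ± 2.87 CPM in gCtl, 22.2 ± 4.65 with either guide, SD, n = 5 each). The WLS call was lost in 5 of the 10 fits with a library left out. With g2 the list had 2 higher calls (10.7% of all genes), and with g1 it had 0. Among R-spondins and receptors 12 of 22 were tested. In the pooled comparison 4 were called lower and 1 higher, with a median of -0.45, where 11.0% and 8.14% of all genes were called. The lower calls were 2 without any one of gCtl replicates 2, 3 and 4 or g1 replicates 1 and 3. ROR1, a receptor of non-canonical Wnt ligands, fell by 2.13 on the log2 scale, FZD2 by 1.17 (a call lost in 7 of the 10 fits with a library left out) and RYK by 0.76, and FZD5, a Frizzled receptor of the intestinal epithelium, rose by 0.87. The co-receptors LRP5 (log2 fold change 0.53, SE 0.23, adjusted p = 0.10) and LRP6 (-0.32, SE 0.14, adjusted p = 0.0987) were not called by edgeR's quasi-likelihood test. FZD2 was called with g1 (-2.14) and not with g2 (-0.37), and these differed by 1.77 (SE 0.40, adjusted p = 0.0185, edgeR's quasi-likelihood test), a difference not called without g1 replicate 1, g1 replicate 2 or g2 replicate 1 (1.53 to 2.01 over the 10 fits).

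Of 18 other inhibitors of the pathway 4 were tested. In the pooled comparison 3 were called lower, with a median of -1.48, where 11.0% of all genes were called lower. The 3 calls were also made with any one library left out. DKK1, a secreted antagonist that binds LRP5 and LRP6, had 115, 80.1, 98.4, 109 and 54.4 CPM in gCtl, 24.5, 16.5 and 27.3 in g1 and 33.9 and 11.8 in g2, and every g1 and g2 library lay below every control. Its log2 fold change was -2.0 (SE 0.26, adjusted p = 0.000167, edgeR's quasi-likelihood test). DKK3, a related secreted protein, fell by 2.21 (SE 0.29), with its counts assigned to transcripts not annotated as coding, and KREMEN1, a membrane receptor for Dickkopf proteins, fell by 0.95 (SE 0.22). The other gene tested was NKD2.

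The destruction complex and Dishevelled list had 17 of 18 genes tested. In the pooled comparison AXIN1 was the single call, lower, with a median of 0.04, where 11.0% of all genes were called lower and 8.14% higher. The AXIN1 call was lost in 7 of the 10 fits with a library left out. With g2 the list had 2 lower and 1 higher calls (13.0% and 10.7% of all genes), and with g1 it had 0. Of 15 nuclear effectors, all tested, 5 were called lower and 3 higher in the pooled comparison, with a median of 0.11. Of all genes tested 11.0% were called lower and 8.14% higher there. Over other settings the list had 3 to 6 lower and 1 to 3 higher calls. TLE2 and TLE4, co-repressors of TCF factors, fell by 1.57 and 0.83. CTNNB1, which encodes beta-catenin, fell by 1.10 (SE 0.21), and LEF1 fell by 1.75 (SE 0.36) in the pooled comparison and by 3.16 with g2, lower than with g1 by 1.92 (SE 0.37, adjusted p = 0.00783, edgeR's quasi-likelihood test). TCF7 had a log2 fold change of -0.32 (SE 0.18, not called), and TCF7L2 rose by 0.81 (SE 0.18) in the pooled comparison. TCF7L2 was called with g1 (1.02, SE 0.16) and not with g2 (0.42, SE 0.18), and the difference between the guides was not called.

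Of 35 other target genes of beta-catenin 26 were tested, 10 were called lower and 1 higher, VEGFA (named here after its value was seen), where 11.0% and 8.14% of all genes were called, with a median of -0.42. With a library left out 8 to 10 were lower and 0 to 3 higher, with 3 higher without g1 replicate 2 and 0 without gCtl replicate 1, 2 or 4 or g1 replicate 1 or 3. Along with DKK1 and LEF1 they included BAMBI, a pseudoreceptor of the TGF-beta family (-1.70, SE 0.35), and SP8, a relative of SP5 (-1.28, SE 0.43), which had as few as 3 counts in a library and lost its call in 8 of the 10 fits with a library left out. The lists share genes. Of these lower calls DKK1 and KREMEN1 were also counted among the other inhibitors and LEF1 among the nuclear effectors. TNFRSF19 and EPHB2 were also counted among the crypt base stem cell genes. Crypt base stem cell genes moved both ways, with 4 called lower and 3 higher of 19 tested out of 24 (again against 11.0% and 8.14% of all genes) and a median of 0.06, and the lower calls were 2 without any one of gCtl replicates 1, 2 and 4 or g2 replicate 2. IGFBP4, an extracellular binding protein of insulin-like growth factors, fell by 1.47 (lost in 5 of the 10 fits with a library left out) and the receptor TNFRSF19 by 1.09, while the transcription factor SOX4, a relative of SOX9, rose by 1.26 and the surface protein CD24 by 1.20. SOX4 and CD24 were higher with g2 than with g1, by 1.28 and 1.38 (edgeR's quasi-likelihood test, adjusted p = 0.00175 and 0.0127), and the CD24 difference was 0.84 to 1.81 with a library left out and not called without g1 replicate 2 or g2 replicate 1.

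**Figure D3:**
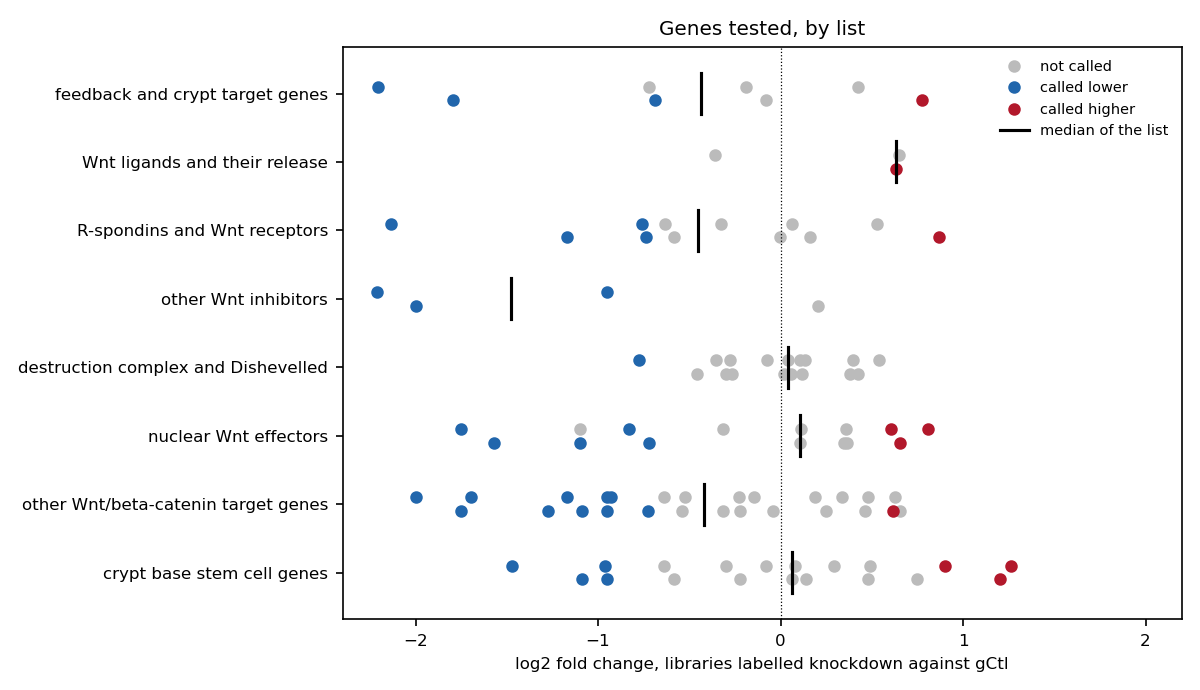
Log2 fold change of the libraries labelled knockdown against gCtl (horizontal axis) for every tested gene of the 8 feedback and crypt target genes and of 7 lists, with called genes in blue (lower) and red (higher) and a bar at each list's median. The medians of the other Wnt inhibitors (-1.48) and of the other target genes (-0.42) lie below 0, and that of the destruction complex (0.04) lies near it.

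Markers of other intestinal cell types were read in the same libraries. Goblet markers summed to 58.3 to 77.5 CPM in gCtl, 46.0 to 117 in g1 and 109 to 130.2 in g2, and FCGBP, a mucus protein, had at most 2 counts in a gCtl library, 1 to 3 in a g1 library and 62 and 81 in the g2 libraries. Of the 3 goblet markers tested edgeR called FCGBP higher in the pooled comparison (5.08), where 8.14% of all genes were called higher. DESeq2 called 2 of them higher there and limma on log2(RPM + 1) called 0. With g1 FCGBP was at 1.28 (SE 0.95) and not called. With g2 edgeR called FCGBP (6.34) and ZG16 (1.90) higher, where 10.7% of all genes were. FCGBP passed the filter on low values through the g2 libraries alone (10.1 and 11.1 RPM), so its calls cannot be read against these shares. Log2 fold changes of the 6 enterocyte markers tested lay between -0.07 and 1.15, those of the 2 Paneth cell markers between -0.78 and 0.56, that of the enteroendocrine marker NEUROD1 was -1.27 and that of the fibroblast marker -0.05. In the pooled comparison 0 of these 10 markers, the goblet markers not among them, were called by edgeR, 3 had an unadjusted p under 0.05 (37.5% of all genes tested had one), and DESeq2 and limma called NEUROD1 alone, which is named after its value was seen. By guide, among the same 10, edgeR called NEUROD1 (-2.20) and PLA2G2A (-1.56) lower and DPP4 (0.66) higher with g1, and KRT20 (1.91) higher with g2. Of all genes tested 9.91% were called lower and 6.81% higher with g1, and 13.0% and 10.7% with g2. None of the 5 leukocyte markers passed the filter. Their part in the changes of the feedback genes was not tested. In bulk RNA fewer cells that express a gene and less RNA per cell cannot be told apart.

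**Figure D4:**
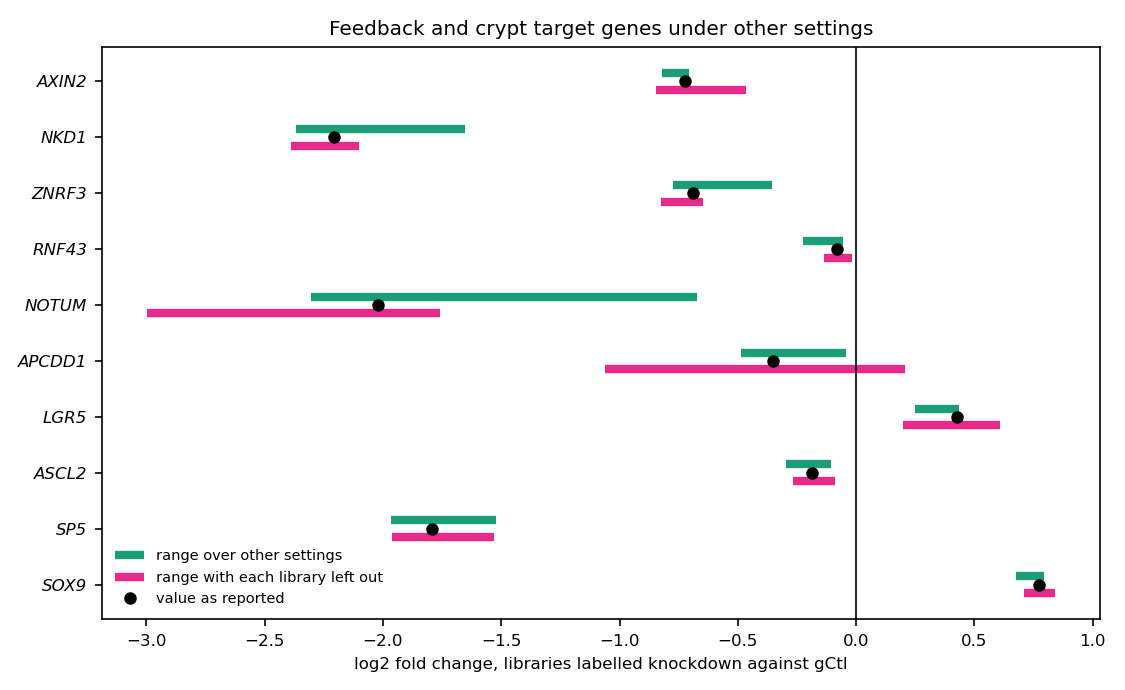
Pooled log2 fold change of each gene as reported (black points), its range over other settings of the analysis (green bars) and its range with each library left out (pink bars). The pink bar of APCDD1 crosses 0, and no other bar does. The bars run from -2.39 to -1.65 for NKD1, -1.97 to -1.52 for SP5 and 0.68 to 0.84 for SOX9.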

How the data were processed

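RNA 3′-end libraries (QuantSeq) of Caco-2 cells were quantified by the authors with kallisto (42.5 in the submitters' processing notes), and the deposited values are estimated counts per transcript, unnormalised, of which at least 74.2% of the non-zero ones in any library were not whole (tolerance 0.0001). They were summed per gene and rounded. Whether counting used strand is not given in the sources used here. The test was edgeR's quasi-likelihood test on protein-coding genes that exceeded 3 RPM in 20% or more of the 10 libraries (R 4.3.3, edgeR 4.0.16, TMM factors, Benjamini-Hochberg adjustment over all 11640 genes). The pooled comparison was a fit of 2 groups, the 5 libraries labelled knockdown against the 5 gCtl libraries, and a second fit of 3 groups tested g1 and g2 against the same gCtl libraries and against each other. Groups were taken from the labels, and libraries are numbered within a group in the order of their records, as names only. LHFPL3-AS2 was compared on log2(RPM + 1) by an exact permutation test (scipy 1.17.1).

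The 10 genes and all lists were chosen with earlier results of these data known. The text names all 10, their paralogues, LRP5, LRP6, the main TCF genes and, per list, up to 4 called genes with the largest pooled log2 fold change. VEGFA and the list genes KRT18, CDH17, ZG16, NEUROD1, PLA2G2A, DPP4, KRT20, FZD4, CSNK1D, SLC12A2 and EPHB2 were named after their values were seen. Locations are from GENCODE v29 (GRCh38) and promoters from RefSeq (GRCh38.p14), which gave 3 of the 10. Alternatives were other scalings, filters, thresholds and pseudocounts (1 and 0.1 RPM), DESeq2 1.42.0, limma 3.58.1 on log2 RPM and TPM, protein-coding transcripts only, a length correction, fits of only the groups compared, and each library left out. The fits were tested on simulated data. A length trend was also simulated, with no changed gene and with a size that was set rather than taken from these data. There edgeR made 4005 false calls in the pooled comparison, and 0 with the trend removed. In the data themselves, removing the length trend took the genes called in the pooled comparison from 2232 to 2075. Depth was 3838803 to 8730468 counts, so 3 counts, the floor used here, was below 1 RPM in every library.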

Additional observations from a re-analysis of the deposited data

Results flagged for a closer look

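Levels of 40 genes were examined for a library far from the others of its group, in 80 pairs of gene and group, and 9 were found. Chance is taken to give about 1 in 20 such pairs, a rate that was not measured here and does not apply where all libraries but 1 had 0. Among the feedback and crypt genes, ZNRF3 was at 19.7 CPM in gCtl replicate 2 and at 34.7 to 36.3 in the other controls, and RNF43 was at 48.3 CPM in the same library and at 58.6 to 60.0 in the others. ASCL2 stood at 70.9 CPM in gCtl replicate 5, where the other controls had 53.5 to 55.6. Over the 5 libraries labelled knockdown, NOTUM was at 1.26 CPM in g2 replicate 1 and at 0 to 0.291 elsewhere, and SP5 was at 0.872 CPM in g2 replicate 2 and at 4.33 to 5.70 elsewhere.

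Among the related genes, LGR4 was at 39.4 CPM in g2 replicate 1 and at 21.3 to 25.3 in the other libraries labelled knockdown. FZD2 was at 15.5 CPM in gCtl replicate 1 and at 6.68 to 8.72 in the other controls. LGR6 was at 0.528 CPM in gCtl replicate 5 and APCDD1L at 0.241 CPM in gCtl replicate 4, each with 0 in the other controls. These values rest on 3 counts and 1 count, and with 0 in the other controls any count is flagged.

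The effect of g2 differed from that of g1 for 6 of the related genes named in the report by edgeR's quasi-likelihood test. It also differed for 4 further genes of the lists (FZD4, CSNK1D, SLC12A2 and KRT20), and for none of the 8 tested feedback and crypt genes. Of all genes tested 3.42% were called lower and 1.55% higher in g2 than in g1. The log2 fold change of g2 against g1 was -1.70 for NKD2 (adjusted p = 0.0408), -1.92 for LEF1 (adjusted p = 0.00783), 1.77 for FZD2 (adjusted p = 0.0185), 1.28 for SOX4 (adjusted p = 0.00175), 1.38 for CD24 (adjusted p = 0.0127) and 5.05 for FCGBP (adjusted p = 0.000532). With a library left out the call was lost in 8 of 10 fits for NKD2, in 3 for FZD2, in 2 for CD24 and in 0 for LEF1, SOX4 and FCGBP. FCGBP passed the filter on low values through the g2 libraries alone.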

How the results depend on the processing

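No paired analysis was possible because the labels give the libraries no replicate numbers, and the numbers used here are only names. Of 1175 values under other settings 1079 kept their direction and side of the threshold, 36 were no longer called, 19 became called, 31 changed sign and 10 counts moved by over 1.5 times. Tested against a fold of 1.5 itself, the 10 genes held 2 lower and 0 higher calls in the pooled comparison, 1 lower and 0 higher with g1, and 2 lower and 0 higher with g2. That test called 488 genes in the pooled comparison, 506 with g1, 802 with g2 and 92 in g2 against g1, in place of 2232, 1947, 2756 and 579. In g2 against g1 the count was also 310 with protein-coding transcripts only, 159 in a fit of those groups alone, 266 without g1 replicate 1 and 313 without g1 replicate 2. It was 1503 with g2 without g2 replicate 2 and 1258 with g1 without g1 replicate 3, so the shares of all genes called that the 10 genes are read against also rest on single libraries. With each library left out, the lower calls ranged from 1 to 3 with g1 and from 2 to 4 with g2, and the higher calls from 0 to 1 with g1.

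None of the values that changed sign was called. With g1, RNF43 was at 0.000499 with upper quartile factors, 6.99e-05 with no filter and 0.0793 by limma on TPM, and ASCL2 was at 0.054 with the length trend removed. With g2, APCDD1 was at -0.092 with library totals alone and, by limma, at -0.0382 on log2(RPM + 1), -0.37 on log2(RPM + 0.1) and -0.012 on TPM. LGR5 with g2 was at -0.13 with library totals alone, -0.0146 with all biotypes, -0.14, -0.17 and -0.12 by the same forms of limma, -0.30 with protein-coding transcripts only and -0.0189 with the length trend removed. With each library left out, APCDD1 ranged from -1.06 to 0.21 in the pooled comparison, from -4.00 to 1.07 with g2 and from -3.33 to 1.74 in g2 against g1. RNF43 ranged from -0.0674 to 0.0757 with g1 and from -0.39 to 0.0109 in g2 against g1, ASCL2 from -0.0754 to 0.0542 with g1, and LGR5 from -0.76 to 0.57 with g2. The causes were not tested. Depth limits NOTUM and APCDD1, with at most 11 and 4.11 counts in a library.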
